A study of Arabidopsis thaliana with 6 samples.

Results

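Histones are the proteins that DNA is wound around in the nucleus, and their genes were followed here in root tips of Arabidopsis thaliana given one of a pair of synthetic CLE peptides. The members are probe sets of the array whose annotation names only loci of a fixed list of 41 core and linker histone genes. This gave 25 probe sets of 22746 on the array, control probe sets left out, and they name 28 of the 41 loci, beside 14265 genes named by any probe set of the array. The other 13 loci were not analysed here. They are the 11 loci of histone H2A, with its variants H2A.X, H2A.W and H2A.Z, and the H2B loci AT3G45980 (HTB9) and AT3G53650. One further probe set, which names AT1G13370 together with a locus outside the list, was left out. The remaining classes were histone H3.1 with 5 probe sets, H4 with 5, H2B with 8, H3.3 with 3, an H3.3-like gene with 1 and linker histone H1 with 3.

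The CLE25 group and the CLE10 group held 3 arrays each. Both were root tips of 5 mm from wild-type Col-0 seedlings, aged 7 days and grown in shaken liquid culture under continuous light, that had been exposed to 1000 nM of the named peptide for 12 h. All comparisons are thus between 2 peptides, since arrays of untreated roots were not analysed here. The study set out to find genes behind the different effects of these peptides on roots. A sample is a piece of organ with many cell types, so fewer cells of a type and less RNA per cell cannot be told apart.

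Core histones H2A, H2B, H3 and H4 build the nucleosome, and linker histone H1 binds where DNA enters and leaves it. Replication-type histones, such as H4 and H3.1, are made in bulk while DNA is copied, so their mRNA is abundant in dividing cells such as those of the root meristem. Replacement-type histones, such as H3.3, are made throughout the cell cycle and are put into chromatin outside DNA replication. In Arabidopsis several separate genes encode the same H3.1 protein, and likewise H4 and H3.3. H2B was not divided by type here.

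Signals are on the linear scale of the deposited table, whose trimmed mean was 500 on each of the 6 arrays and whose array medians lay between 157 and 172. Log2 fold changes are CLE25 minus CLE10 with their standard error, after a pseudocount of 6.03 was added to each signal, from limma fitted over 13648 probe sets bright enough to be tested. Signals of different probe sets depend on their probes and are not compared with each other. Of the 25 histone probe sets, 22 were bright enough to be tested, and their group means ran from 203 to 11068 with CLE25 and from 218 to 11016 with CLE10. The 3 dim ones lay under the limit, a signal near 92.3, in both groups. Of the 13 histone probe sets that name several loci, only 3 carry the array maker's mark for probes shared by several transcripts. Which of the near-identical genes each probe set reads cannot be told from the annotation.

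Histone mRNA signals in root tips given CLE25 were between 82.5% and 131% of those in root tips given CLE10, over the probe sets tested, and both ends of that range belong to H3.1. Of the 22 histone probe sets tested, 0 passed an adjusted p of 0.05 in limma, where 0% of all 13648 probe sets passed. At an unadjusted p under 0.05 there was 1 histone probe set higher with CLE25, beside 1.91% of all probe sets, and 0 lower, beside 2.3% of all probe sets. Of the 22, 13 had a positive and 9 a negative log2 fold change, and their median was 0.01, against -0.0024 over all probe sets tested. The 95% confidence interval lay inside 1.5-fold in either direction for 20 of the 22, or 90.9%, and for 81.5% of all probe sets tested. The spread of histone signals between arrays of a group had a median residual SD of 0.119 on the log2 scale, against 0.165 over all probe sets tested. The group means of all tested histone probe sets lay above the array medians. The comparisons of intervals and spread were not matched for brightness.

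**Figure D1:**
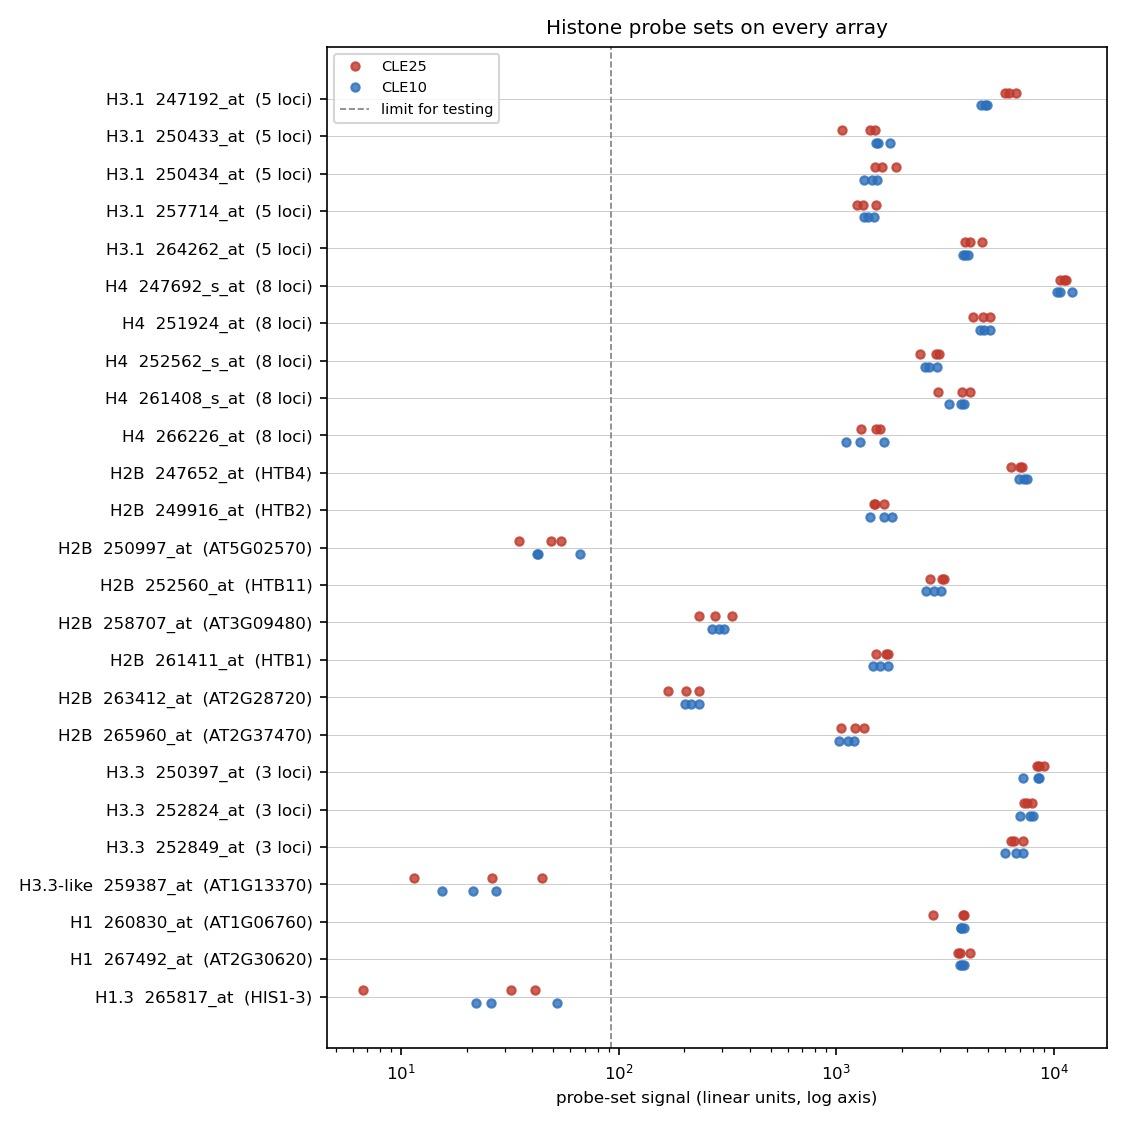
Signal of the 25 histone probe sets (linear units on a log axis) on each of the 3 CLE25 arrays (upper points of a row) and 3 CLE10 arrays (lower points), with the limit for testing as a dashed line. The groups lie over each other in all rows but those of 247192_at, where CLE25 is above, and 250433_at, where CLE25 is just below. The 3 dim probe sets lie left of the line.

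Histone H3.1, the H3 form laid down behind the replication fork, held both histone probe sets whose groups did not overlap, 1 in each direction. Its 5 probe sets are each annotated with the same 5 loci, AT1G09200, AT3G27360, AT5G10390, AT5G10400 and AT5G65360, of which AT5G10390 and AT5G10400 are neighbours in the genome. Probe set 247192_at had signals of 6728, 5965 and 6217 with CLE25, against 4844, 4956 and 4615 with CLE10. All 3 CLE25 arrays thus lay above all 3 CLE10 arrays. Its mean was 6303 ± 389 with CLE25 and 4805 ± 174 with CLE10 (SD, n = 3 each), a ratio of 131%. The log2 fold change was 0.39 ± 0.09, with a 95% confidence interval from 0.19 to 0.59, an unadjusted limma p of 0.00128 and an adjusted p of 0.856. The difference was larger than the spread between arrays and did not pass the correction over all probe sets. Groups that do not overlap in this direction were seen for 4.67% of all probe sets tested. Among the histone probe sets tested it was 1 of 22, which is near that share.

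A second H3.1 probe set differed the other way. Probe set 250433_at had signals of 1425, 1510 and 1064 with CLE25, against 1773, 1556 and 1517 with CLE10. The groups did not overlap, as for 4.51% of all probe sets in this direction, but the highest CLE25 array and the lowest CLE10 array were nearly equal. The log2 fold change was -0.29 ± 0.14, with an interval from -0.59 to 0.01 (limma adjusted p = 0.9995). Much of that value came from CLE25 replicate 3, and without it the log2 fold change was -0.14. Within an array, 247192_at gained on 250433_at with CLE25. Set to 0 at the mean of the CLE10 arrays, their log2 difference was 0.66, 0.41 and 0.97 with CLE25, against -0.13, 0.10 and 0.03 with CLE10. This pair was picked after its values were seen, so the gap is a description, with no test. The annotation gives the same loci to both, although they differ in direction.

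The other H3.1 probe sets lay between these, with groups that overlapped. Probe set 250434_at had 1620, 1515 and 1879 with CLE25, against 1339, 1545 and 1468 with CLE10, which gives a log2 fold change of 0.20 ± 0.11 at a limma adjusted p of 0.9995. Probe set 264262_at had 3908, 4120 and 4674 with CLE25, against 3916, 3824 and 4040 with CLE10, a log2 fold change of 0.10 ± 0.10. For both, CLE25 replicate 3 was the highest array. Probe set 257714_at had 1527, 1324 and 1244 with CLE25, against 1342, 1399 and 1493 with CLE10, a log2 fold change of -0.05 ± 0.11. Over the class, 3 of 5 probe sets were positive and 2 negative, and the median was 0.10. That median was 0.03 without CLE25 replicate 3 and 0.16 without CLE25 replicate 1.

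**Figure D2:**
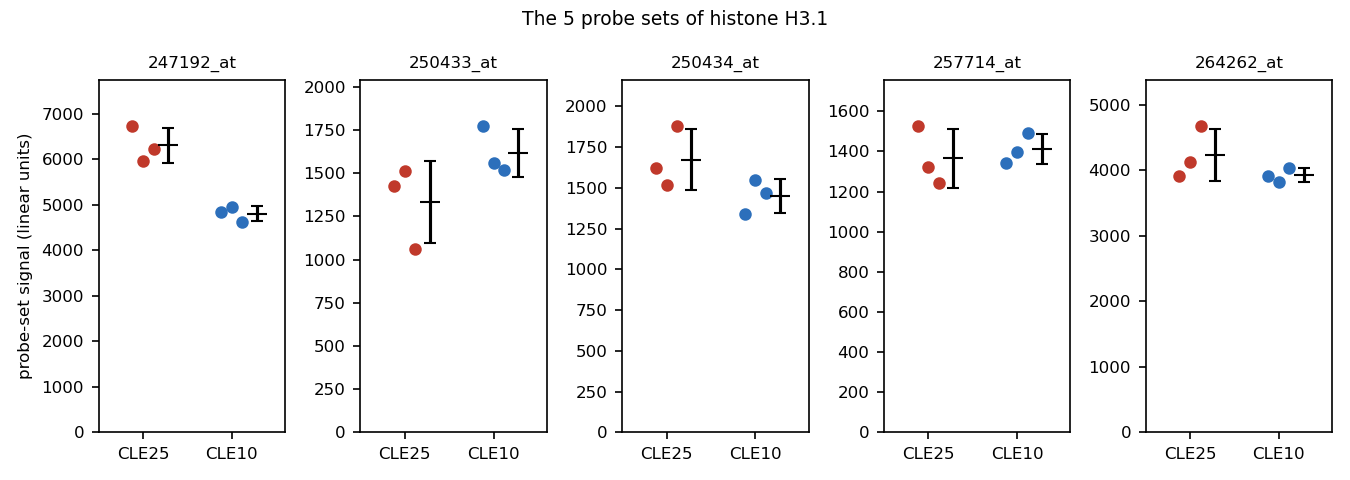
Signal of each H3.1 probe set (linear units, axis from 0) on the CLE25 arrays (left) and the CLE10 arrays (right), with replicates 1 to 3 from left to right and the mean ± SD of each group beside the points. The CLE25 arrays of 247192_at lie between 5965 and 6728 and its CLE10 arrays between 4615 and 4956, and the gap is the other way and narrow for 250433_at.

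Averaged over its 5 probe sets on the log2 scale, and given as the deviation from the mean of the 6 arrays, H3.1 stood at 0.08, 0.02 and 0.01 with CLE25, against -0.04, -0.03 and -0.04 with CLE10. The groups did not overlap, at a difference of 0.07. Without 247192_at, an omission chosen after the values were seen, the H3.1 values were 0.03, -0.01 and -0.03 with CLE25, against -0.01, 0.003 and 0.02 with CLE10. Those groups overlapped, at a difference of -0.009. Since 247192_at had the highest log2 fold change of the class, leaving it out had to lower the difference. Whether the groups also overlap without another H3.1 probe set was not tested, so the separation is not credited to 247192_at alone.

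Histone H4, the partner of H3 in the nucleosome core, had mean signals with CLE25 between 97.0% and 109% of those with CLE10. Its 5 probe sets are each annotated with the same 8 loci: AT1G07660, AT1G07820, AT2G28740 (HIS4), AT3G45930, AT3G46320, AT3G53730, AT5G59690 and AT5G59970. Probe set 247692_s_at, the brightest of the class, had 11346, 10685 and 11175 with CLE25, against 12071, 10328 and 10650 with CLE10. The groups overlapped, and the log2 fold change was 0.0097 ± 0.10, with an interval from -0.20 to 0.22 (limma adjusted p = 0.9995). Its sign is not settled, since the value was -0.02 after quantile normalization. Probe set 266226_at had 1590, 1532 and 1296 with CLE25, against 1293, 1114 and 1664 with CLE10. Both the lowest and the highest of these arrays were CLE10 arrays, and the log2 fold change was 0.13 ± 0.14. Leaving out CLE10 replicate 2 gave 0.00023, and leaving out CLE10 replicate 3 gave 0.29. The log2 fold changes were -0.05 ± 0.10 for 251924_at, 0.02 ± 0.11 for 252562_s_at and -0.02 ± 0.13 for 261408_s_at. The median of the H4 class was 0.01, and the intervals of all 5 probe sets lay inside 1.5-fold.

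Taken as one, the replication-type probe sets of H3.1 and H4 had 6 positive and 4 negative log2 fold changes of 10, with a median of 0.02. Their log2 mean deviated by 0.05, 0.03 and -0.02 with CLE25, against -0.02, -0.08 and 0.03 with CLE10, and the groups overlapped. That median ran from -0.02 (without CLE10 replicate 2) to 0.05 (without CLE10 replicate 1) when an array was left out. The 3 H3.3 probe sets, which stand for the replacement type here, had a median of 0.02, and the difference between the types was not tested.

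H2B, which pairs with H2A in the nucleosome, had 8 probe sets that name 1 locus each in the annotation, and whether they also read near-identical H2B genes was not tested. HTB4 (AT5G59910) had signals of 6968, 7127 and 6340 with CLE25, against 6925, 7541 and 7312 with CLE10. The groups overlapped, and the log2 fold change was -0.09 ± 0.09 (limma adjusted p = 0.9995). HTB11 (AT3G46030) had 3135, 2708 and 3054 with CLE25, against 2584, 2802 and 3040 with CLE10, a log2 fold change of 0.08 ± 0.10. HTB2 (AT5G22880) averaged 1554 ± 93.5 with CLE25 and 1631 ± 194 with CLE10 (SD, n = 3 each), a log2 fold change of -0.06 ± 0.11. HTB1 (AT1G07790) averaged 1649 ± 114 with CLE25 and 1599 ± 123 with CLE10, a log2 fold change of 0.04 ± 0.10. For these genes the means differed by less than the larger SD, except for HTB4, whose means of 6811 ± 416 with CLE25 and 7260 ± 311 with CLE10 differed by slightly more.

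Of the remaining H2B genes, AT2G37470 had 1343, 1225 and 1049 with CLE25, against 1034, 1209 and 1136 with CLE10, a log2 fold change of 0.09 ± 0.12. AT2G28720 had 169, 235 and 205 with CLE25, against 234, 203 and 216 with CLE10, a log2 fold change of -0.11 ± 0.16. AT3G09480 had 277, 235 and 332 with CLE25, against 270, 289 and 306 with CLE10, a log2 fold change of -0.05 ± 0.15. In each of them the groups overlapped. Of the 7 H2B genes tested, 3 were positive and 4 negative, and the median was -0.05. That median turned to 0.03 without CLE25 replicate 2 and to 0.01 without CLE10 replicate 3 or CLE25 replicate 1. AT5G02570 was below the limit for testing, with 54.2, 49.1 and 34.7 with CLE25, against 42.3, 66.2 and 42.8 with CLE10. In the gene table it overlaps AT5G02560 (HTA12), an H2A gene, so its signal is uncertain also for that reason.

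**Figure D3:**
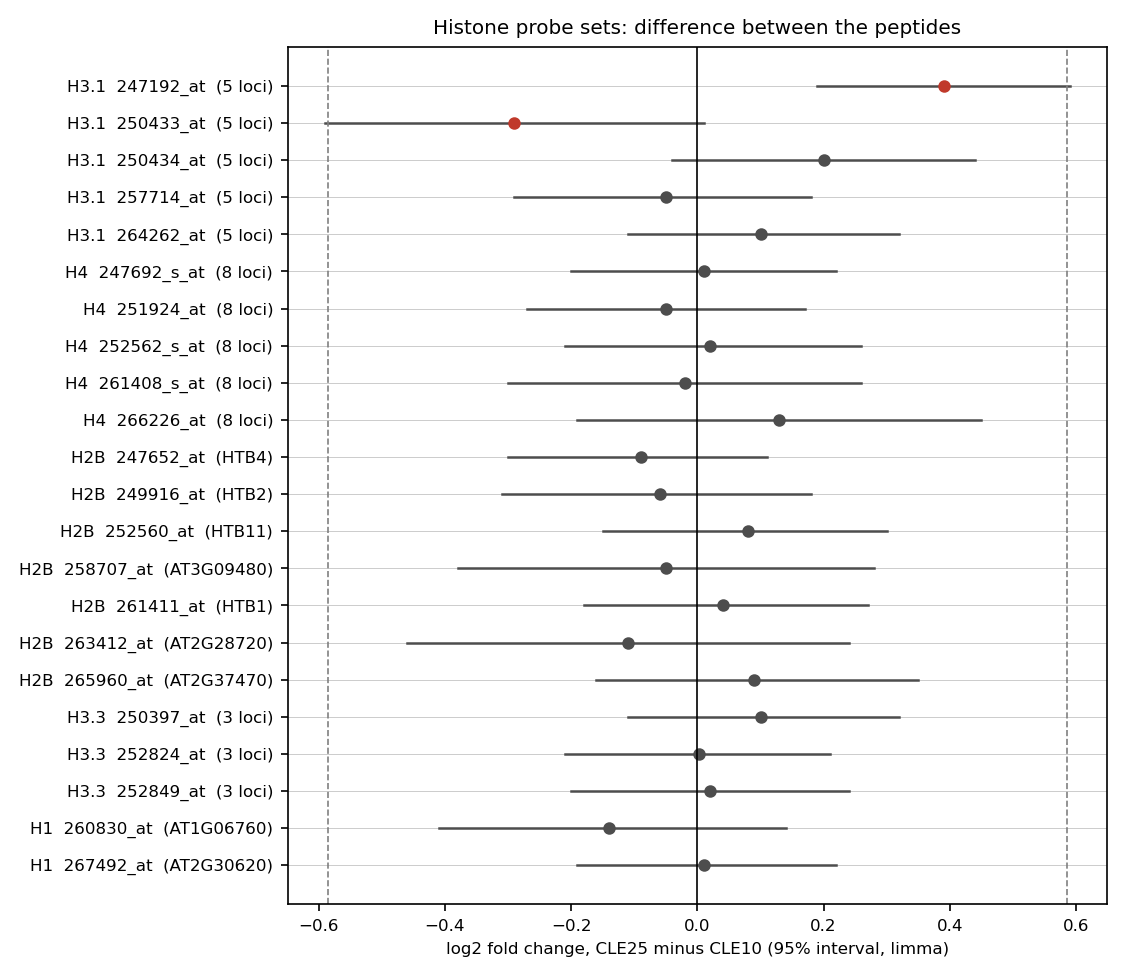
Log2 fold change of the 22 tested histone probe sets, CLE25 minus CLE10, with 95% confidence intervals from limma and dashed lines at 1.5-fold either way. Red points mark 247192_at and 250433_at, whose groups do not overlap. Their intervals are the ones that reach a dashed line, and the interval of 247192_at is the one that leaves out 0.

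Histone H3.3, the replacement form of H3, had mean signals with CLE25 between 100% and 107% of those with CLE10, and the intervals of its 3 probe sets lay inside 1.5-fold. Its 3 probe sets are annotated with the same 3 loci, AT4G40030, AT4G40040 and AT5G10980, the first pair of which are neighbours in the genome. Probe set 250397_at had 8989, 8366 and 8583 with CLE25, against 8446, 7236 and 8518 with CLE10. CLE10 replicate 2 was below the rest, the groups overlapped, and the log2 fold change was 0.10 ± 0.10 (limma adjusted p = 0.9995). Probe set 252824_at had 7314, 7914 and 7557 with CLE25, against 7810, 6967 and 8008 with CLE10, a log2 fold change of 0.0019 ± 0.09 that turned to -0.02 after quantile normalization. Probe set 252849_at had 7217, 6369 and 6538 with CLE25, against 6711, 5969 and 7198 with CLE10, a log2 fold change of 0.02 ± 0.10. CLE10 replicate 2 had the lowest signal in 3 of 3 H3.3 probe sets, where it was the lowest array in 15.1% of all probe sets tested. The H3.3 log2 mean deviated by -0.16 on that array, against 0.02 and 0.07 on the other CLE10 arrays, and by 0.06, 0.001 and 0.004 on the CLE25 arrays. Without it the H3.3 median was -0.05 in place of 0.02.

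AT1G13370, an H3.3-like gene, was listed at 44.4, 11.5 and 26.2 with CLE25, against 21.4, 15.5 and 27.4 with CLE10. All of these values lie under the limit for testing, and no direction was read from them.

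Linker histone H1 was represented by its main genes and one further dim gene. AT2G30620 had signals of 4140, 3709 and 3614 with CLE25, against 3700, 3863 and 3773 with CLE10. The CLE25 arrays lay on both sides of the CLE10 arrays, and the log2 fold change was 0.01 ± 0.09, with an interval from -0.19 to 0.22 (limma adjusted p = 0.9995). AT1G06760 had 3855, 3827 and 2777 with CLE25, against 3743, 3881 and 3748 with CLE10. A single array, CLE25 replicate 3, was low, and the log2 fold change was -0.14 ± 0.13 with it and 0.02 without it. HIS1-3 (AT2G18050), an H1 gene known to be induced by drought, was listed at 6.66, 41.3 and 31.9 with CLE25, against 25.9, 52.1 and 22.2 with CLE10, below the limit for testing. The median of both tested H1 genes was -0.06, and it was 0.04 without CLE25 replicate 3.

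**Figure D4:**
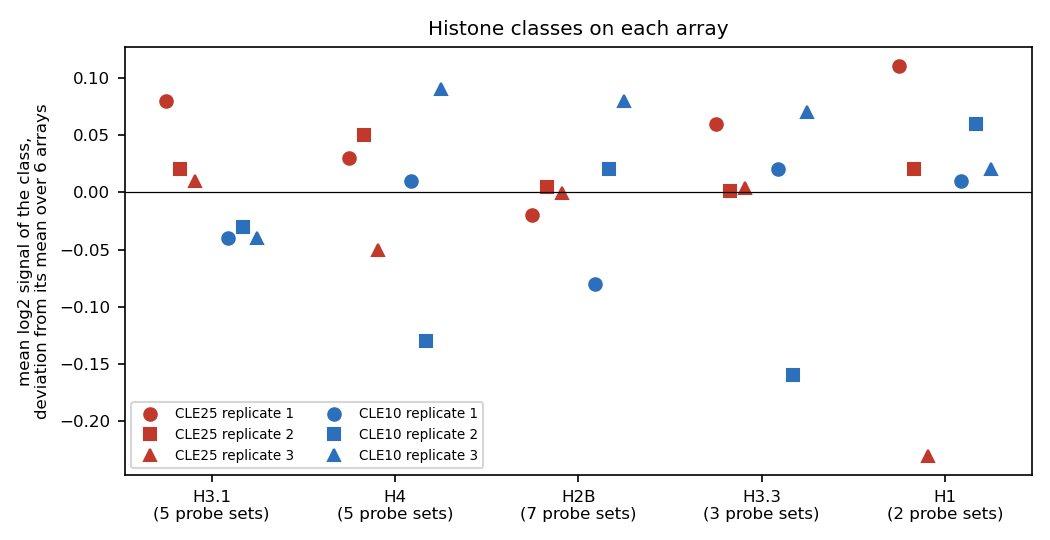
Mean log2 signal of each histone class on each array, as the deviation from the mean of that class over the 6 arrays, with CLE25 left and CLE10 right in each class and a symbol for each replicate number. The groups do not overlap for H3.1, whose group means differ by 0.07, and lie over each other for H4, H2B, H3.3 and H1. Without 247192_at the H3.1 groups overlap. CLE10 replicate 2 is low for H3.3 at -0.16, and CLE25 replicate 3 is low for H1 at -0.23.

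No array was low or high for all histones. CLE25 replicate 3 had the lowest signal in 7 of the 22 tested histone probe sets, or 31.8%, beside 24.6% of all probe sets tested. CLE10 replicate 2 was the lowest in 6, or 27.3%, beside 15.1%, and CLE10 replicate 1 in 5, or 22.7%, beside 16.9%. In H2B, CLE10 replicate 1 was the lowest in 4 of the 7 probe sets tested, or 57.1%. The H2B log2 mean deviated by -0.08 on that array, against 0.02 and 0.08 on the other CLE10 arrays. CLE25 replicate 1 had the highest signal in 8, or 36.4%, beside 17.5% of all probe sets tested, and CLE25 replicate 3 in 5, or 22.7%, beside 17.9%. The mean log2 ratio of 3' to 5' signal in the actin and GAPDH controls, a measure of RNA quality, was 2.37, 2.26 and 2.02 with CLE25, against 2.03, 2.26 and 2.22 with CLE10. The part of RNA quality in the histone values was not tested.

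Genes that handle histones or mark dividing cells, other histone genes, and markers of root tip and green tissue were read from 7 lists. These held 118 entries in all, of which 109 matched in locus and symbol and 19 had a probe set naming them alone. Of the 18 bright enough to be tested, 0 passed an adjusted p of 0.05 in limma and 0 had an unadjusted p under 0.05. Among chaperones and assembly factors, 4 of 22 entries were tested. ASF1A, a chaperone that hands H3 and H4 to the assembly machinery, had 388, 387 and 437 with CLE25, against 361, 297 and 380 with CLE10. Its groups did not overlap, as for 4.67% of all probe sets in this direction, but the nearest arrays, at 387 and 380, were nearly equal. The log2 fold change was 0.23 ± 0.13 (limma adjusted p = 0.9995). ASF1B, its paralogue, had 0.12 ± 0.13. The chromatin remodeller CHR17 had a log2 fold change of -0.09 ± 0.13 and ATRX, a remodeller known for H3.3 deposition, -0.03 ± 0.14. The median of this list was 0.05, with 2 positive and 2 negative.

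The remaining lists had 2 tested genes each, apart from the root tip markers with 4. In variant exchange, the remodeller INO80 had a log2 fold change of -0.23 ± 0.15 and SWC2, a subunit of the complex that deposits H2A.Z, 0.10 ± 0.17. Of 31 DNA replication entries, MCM7, a subunit of the replicative helicase, had 0.15 ± 0.11, and ICU2, the catalytic subunit of DNA polymerase alpha, 0.19 ± 0.16. Of 20 mitosis entries, the kinase AUR1 had 790, 710 and 827 with CLE25, against 591, 672 and 707 with CLE10. The AUR1 groups did not overlap, as for 4.67% of all probe sets in this direction, but 710 and 707 were nearly equal. Its log2 fold change was 0.24 ± 0.12, while AUR2 had -0.04 ± 0.14. Of other histone genes, HTR12, the centromeric H3, had 218, 167 and 235 with CLE25, against 149, 158 and 175 with CLE10, which gives a log2 fold change of 0.34 ± 0.17 at a limma adjusted p of 0.9995. HON4, which has a linker-histone-like domain, had -0.18 ± 0.14. None of these differences passed the test.

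The labelled tissue could be checked with few markers. Of 19 root tip entries, 5 had a probe set of their own, and their summed signal was 4337 to 6884 with CLE25 and 4230 to 5386 with CLE10. The root hair expansins EXPA7 and EXPA18 were bright, with means of 1904 ± 628 and 3219 ± 743 with CLE25 and 1564 ± 237 and 2909 ± 285 with CLE10 (SD, n = 3 each). BBM, a meristem transcription factor, averaged 103 ± 30.7 with CLE25 and 121 ± 13.4 with CLE10, and JKD, another, 142 ± 17.6 with CLE25 and 147 ± 58.5 with CLE10. ACR4, a receptor kinase of the root cap and stem cell region, was under the limit, at 41.1 ± 22.9 with CLE25 and 70.7 ± 5.17 with CLE10. The green tissue genes LHCB4.1 and RCA summed to 310 to 468 with CLE25 and 356 to 460 with CLE10. Most of this came from RCA, with means of 299 with CLE25 and 301 with CLE10. LHCB4.1 was near the limit for testing, with means of 91.6 with CLE25 and 121 with CLE10. Whether green tissue was present cannot be told from these signals. LHCB4.1, a light-harvesting protein, had 129, 105 and 40.2 with CLE25, against 123, 91.9 and 148 with CLE10, a log2 fold change of -0.49 ± 0.35 with groups that overlapped, and RCA, the activase of Rubisco, had -0.01 ± 0.14. The summed signals of both lists overlapped between the groups, and their part in the histone values was not tested.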

How the data were processed

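The deposited table holds intensity values, one linear signal per probe set and array, made by the authors with GCOS 1.4, per the submitters' processing notes; the settings and the genome build were not given in the sources used here. A trimmed mean of 500 on every array (2% off each end) shows a global scaling, which would hide a shift of all transcripts. Values were used as deposited. Of 22810 probe sets, 64 controls were left out. Loci came from the platform annotation through the TAIR10.1 gene table, used for names and neighbours only. Signals were taken as log2(signal + 6.03), the 10th percentile of all values, and probe sets with a mean under the 40th percentile (6.62) were left out. CLE25 was compared with CLE10 by limma 3.58.1 (R 4.3.3; lmFit, eBayes with trend, Benjamini-Hochberg) over all 13648 probe sets, without a replicate block, and the script was tested on simulated data. Separate cultures for the arrays of a group are not mentioned in the labels, so p-values cover only the variation among these arrays, possibly technical; the number of arrays limits the precision.

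The members and gene lists were chosen with earlier results of these data known. Values on every array were to be given for the brightest probe set of each class, for up to 4 tested members per direction with the smallest p and for any that passed; of each list, the gene with the smallest p per direction was to be named, with or without its arrays. Other members are given too. Medians over a class carry no test. Alternatives were other pseudocounts and filters, no trend, array weights, quantile normalization, a replicate block, one-member probe sets and leaving out each array. Promoter motifs were not searched, and no sequence was used here.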

Additional observations from a re-analysis of the deposited data

How the results depend on the processing

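With 0 histone probe sets called, no alternative called any, leaving out each array included (0 to 0). Over the whole array 0 were called, and 0 to 0 on leaving out an array, but 1 with a replicate block, which is no histone probe set. The histone count at an unadjusted p under 0.05, 1 here, was 2 with a replicate block and 1 to 2 on leaving out an array. The same count over the whole array, 575, came to 814 with the replicate block, to 980 without the filter on dim probe sets (more tested), to 362 with a stricter filter, the 60th percentile (a smaller number tested), and to 358 to 889 on leaving out an array. For 247192_at the log2 fold change ran from 0.34 (without CLE25 replicate 1) to 0.43, and its limma adjusted p from 0.476 (replicate block) to 1.0. Its groups do not overlap, so leaving out an array could not turn its sign. Of the 22 tested members, 9 kept their sign and 13 turned it under at least 1 of the 10 alternatives that can change a fold change; the replicate block, the filters and the trend cannot. Leaving out an array moved the class medians over 0.03 to 0.16 (H3.1), -0.04 to 0.02 (H4), -0.06 to 0.03 (H2B), -0.05 to 0.08 (H3.3) and -0.13 to 0.04 (H1). With array weights 247692_s_at was -5.5e-05 and 252824_at -0.0096, and with quantile normalization both were -0.02.

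Leaving out an array reversed these members over the ranges -0.14 to 0.01 (257714_at), -0.04 to 0.08 (247692_s_at), -0.11 to 0.02 (251924_at), -0.04 to 0.11 (252562_s_at), -0.12 to 0.12 (261408_s_at), -0.16 to 0.01 (HTB2), -0.17 to 0.07 (AT3G09480), -0.0088 to 0.10 (HTB1), -0.22 to 0.01 (AT2G28720), -0.06 to 0.04 (252824_at), -0.05 to 0.08 (252849_at), -0.22 to 0.02 (AT1G06760) and -0.05 to 0.05 (AT2G30620). The causes were not tested.

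For the pairing of arrays by replicate number, the deviations from the group means correlated at 0.0761, 0.136 and 0.221 between same-numbered arrays. Nothing in the labels gives the numbers a meaning, so the arrays were treated as unpaired. Each array did correlate best with its own number, a hint from the data. Dim signals limit AT5G02570, AT1G13370 and HIS1-3.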
